A study of Mus musculus with 6 samples.

Results

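Collagen genes were followed in 6 mouse tumours, 3 with a control hairpin and 3 with a hairpin against the sialyltransferase ST3GAL3. The members were all genes whose symbol has the form Col, a type number, the letter a and a chain number, which gave 44 of the 57462 genes in each file. They were divided by the structure of the protein into 11 fibrillar, 8 basement membrane and 25 other collagens. Every tumour was grown from HM1, an established mouse ovarian cancer cell line, and was taken from an early tumour model. In the group shControl (n = 3) the labels give the genotype and treatment as wild type, while the titles name a control hairpin, and in the group shST3GAL3 (n = 3) they give ST3GAL3 knockdown. The sources used here do not give host strain, age, injection site or the promoter of the hairpin. Whether each tumour came from its own mouse is not stated either, and p-values therefore rest on a spread between samples that may be technical.

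Levels are given as TPM, in which each gene's share of the library is scaled by its length, so levels of different genes can be compared within a tumour. The files keep no read number, and the depth of each library is unknown. St3gal3 stood at 13.9 ± 0.127 TPM in shControl and 7.57 ± 0.838 TPM in shST3GAL3 tumours (SD, n = 3 each), with no overlap, as a check of the labels. The samples are whole tumour tissue, which also holds host cells. Of 7 epithelial markers, the keratin genes Krt8, Krt18 and Krt19 stood between 384 and 1304 TPM in the 6 tumours. Krt7, Epcam and the ovarian factor gene Pax8 reached at most 1.65 TPM, and Cdh1 lay between 2.44 and 9.46 TPM. One library stood apart from the rest. Over the 14207 tested genes, shST3GAL3 1 had rank correlations of 0.922 to 0.955 with the other libraries, against 0.971 to 0.984 among those. Medians and many collagen fold changes are given with and without it, or tumour by tumour.

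Collagens are secreted or membrane proteins built of 3 chains wound into a triple helix. Fibrillar collagens are made mainly by fibroblasts, and their propeptides are cleaved outside the cell before they assemble into cross-linked fibrils. Collagen IV forms a sheet-like network in the basement membrane under epithelium and around blood vessels, where it is bound to laminin, nidogen and perlecan. Collagen VI forms beaded filaments, and the fibril-associated collagens decorate the surface of fibrils. In tumours, fibrillar collagens are known as the bulk of the stromal matrix laid down by cancer-associated fibroblasts.

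Most fibrillar collagens and the main collagen VI chains had higher values in the shST3GAL3 tumours, though none passed the test over all genes, and the summed basement membrane level was alike in both groups. In shControl 1, 2 and 3 the fibrillar collagens summed to 783, 684 and 1058 TPM, and in shST3GAL3 1, 2 and 3 to 6492, 1752 and 1238 TPM. The basement membrane sum was 694, 699 and 703 TPM in the shControl and 715, 666 and 699 TPM in the shST3GAL3 tumours. The fibrillar sums of the groups did not overlap, and the tumour shST3GAL3 1 was far above all others. The basement membrane sums overlapped.

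Of the 44 collagen genes, 24 had at least 1 TPM in 3 or more libraries and were tested together with all other genes. Fold changes are differences of log2(TPM + 1) between the group means, so the folds of low genes come out too small. None of the 24 passed an adjusted p of 0.05 over all genes in limma, whose Benjamini-Hochberg adjusted p-values for them ran from 0.38 to 0.964. Over all genes 0% were called higher and 0.00704% lower. St3gal3 itself was not called (log2 fold change -0.80, SE 0.11, adjusted p = 0.348 in limma). At an unadjusted p under 0.05, 13 collagens were higher and 0 lower, against 9.19% and 3.78% of all tested genes. That split over all genes, 1305 higher and 537 lower, was 969 and 821 with median-ratio scaling and 880 and 960 with quantile normalization. The groups did not overlap and shST3GAL3 was the higher for 14 of the 24, against 15.7% of all genes, and the lower for 0, against 7.76%. One of the 14, Col24a1, reached 1 TPM in all 3 shST3GAL3 but not in all 3 shControl tumours. Without genes that reached 1 TPM in all 3 tumours of 1 group alone, the counts were 13 of 23 higher, against 15.1% of all genes, and 0 lower, against 7.59%. The 14 were 7 of 8 fibrillar, 1 of 5 basement membrane and 6 of 11 other collagens. The median log2 fold change was 1.41 for fibrillar, 0.04 for basement membrane and 1.02 for other collagens, beside 0.01 over all genes. Without shST3GAL3 1 these medians were 0.79, -0.01 and 0.44, beside 0.04 over all genes, and 14 collagens lay above the shControl range, against 21.2% of all genes, and 0 below it, against 9.38%. The tumour shST3GAL3 1 was the highest of the 6 for 21 of the 24, against 28.6% of all genes, and the lowest for 2, against 36.7%. The order shST3GAL3 1, 2, 3 and then every shControl tumour was found for 14, against 8.33%.

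**Figure D1:**
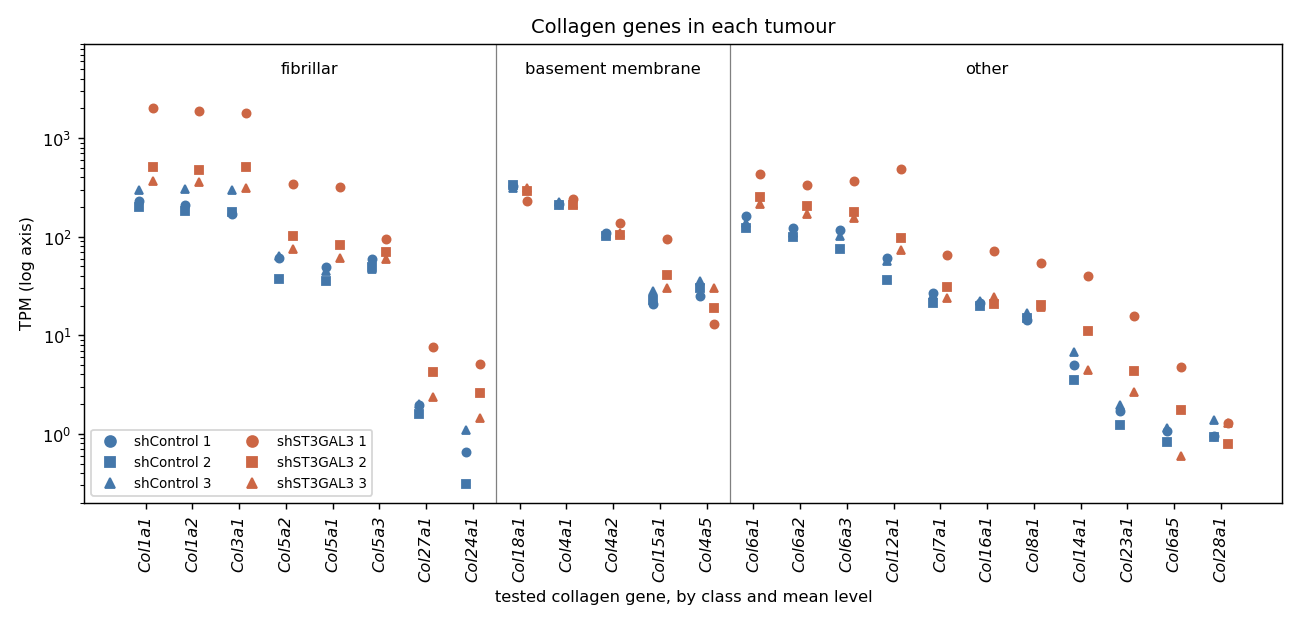
TPM of the 24 tested collagen genes in each tumour, on a log axis, with genes grouped by class and ordered by mean level. Blue marks are shControl and orange marks shST3GAL3 tumours, the shape gives the replicate number, and shST3GAL3 1 stands above the other tumours for 8 of 8 fibrillar genes, while marks of Col4a1 and Col4a2 lie close together.

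Col1a1 and Col1a2 encode the chains of collagen I, the main protein of stromal fibrils. In shControl 1, 2 and 3 Col1a1 was at 230.3, 198.7 and 298.4 TPM, and in shST3GAL3 1, 2 and 3 at 2033.3, 504.4 and 368.6 TPM. The groups did not overlap, and the 3 shST3GAL3 tumours were 8.39, 2.08 and 1.52 times the shControl mean. Col1a2 stood at 209.6, 183.0 and 302.0 TPM and at 1891.1, 473.5 and 357.7 TPM, with the tumours in the same order. Its log2 fold change was 1.59 (SE 0.60), like that of Col1a1 (1.59, SE 0.60), and the adjusted p was 0.38 for each in limma. Without shST3GAL3 1 the log2 fold changes were 0.86 for Col1a2 and 0.85 for Col1a1.

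Col3a1, whose product forms thin fibrils together with collagen I, had a log2 fold change of 1.65 (SE 0.62, adjusted p = 0.38 in limma). It stood at 171.2, 177.5 and 297.9 TPM in the shControl and at 1792.4, 511.9 and 311.0 TPM in the shST3GAL3 tumours. The groups did not overlap, but shST3GAL3 3 was close to shControl 3. Leaving out shST3GAL3 1 gave a log2 fold change of 0.93.

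The 200 bases before the annotated starts of Col1a2 and Col3a1 are shown because these genes, with Col1a1, were the most abundant fibrillar collagens. They are read from RefSeq promoter windows on GRCm38.p6, on the plus strand at chr6:4505418-4505617 and chr1:45311338-45311537. The files were made on another build, GRCm39. Capitals mark each match, on either strand, to CCAAT (known as the CCAAT box), to GGGCGG (the GC box) and to TATAAA (the TATA box).
Col1a2: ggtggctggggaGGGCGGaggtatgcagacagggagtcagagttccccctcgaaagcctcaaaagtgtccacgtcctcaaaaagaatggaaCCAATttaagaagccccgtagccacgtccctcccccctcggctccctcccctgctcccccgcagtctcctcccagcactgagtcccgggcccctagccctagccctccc
Col3a1: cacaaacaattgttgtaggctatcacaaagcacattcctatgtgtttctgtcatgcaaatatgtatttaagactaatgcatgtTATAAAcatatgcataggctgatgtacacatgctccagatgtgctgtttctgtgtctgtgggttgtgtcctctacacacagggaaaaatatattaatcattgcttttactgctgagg
Col1a2 held GGGCGG 188 bases and CCAAT 109 bases before the start, and Col3a1 held TATAAA 117 bases before it. Of the 44 members 35 had a RefSeq window, among them 20 of the tested genes. In the 250 bases before the start, 8 of these 20 held CCAAT, 13 GGGCGG and 1 TATAAA, on either strand. The same motifs were found before 37.5%, 35.4% and 14.3% of the 27025 genes with a window. The motif matches are a description of these letters only.

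Collagen V, which starts and limits the width of collagen I fibrils, is encoded by Col5a1, Col5a2 and Col5a3. Col5a1 stood at 48.8, 35.8 and 44.7 TPM in the shControl and at 318.6, 82.1 and 60.9 TPM in the shST3GAL3 tumours. Col5a2 stood at 60.2, 37.4 and 63.3 TPM and at 342.3, 102.4 and 75.2 TPM. For both genes every shST3GAL3 tumour was above every shControl tumour, with log2 fold changes of 1.43 (SE 0.58) and 1.39 (SE 0.55). Col5a3 was nearer between the groups, at 59.2, 48.8 and 47.3 TPM and at 94.5, 69.4 and 59.0 TPM. Here shST3GAL3 3 was just under shControl 1, and the log2 fold change was 0.49 (SE 0.18).

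The remaining fibrillar genes were low. Col24a1 stood at 0.65, 0.31 and 1.10 TPM and at 5.07, 2.61 and 1.45 TPM, and Col27a1 at 1.95, 1.58 and 1.99 TPM and at 7.56, 4.25 and 2.38 TPM. Neither gene had overlapping groups, and their log2 fold changes were 1.19 (SE 0.36) and 0.91 (SE 0.33). Col11a1, a minor fibril chain, was not tested and reached 6.45 TPM in shST3GAL3 1, with 0.20 to 0.74 TPM in the other tumours. Col2a1 and Col11a2, genes known from cartilage, stayed between 0.22 and 0.70 TPM in all 6 tumours. The cartilage genes Acan, Matn1, Matn3, Hapln1 and Cnmd were at 0.30 TPM or less, while Sox9, the other gene of the cartilage list, stood at 36.0 to 55.8 TPM.

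**Figure D2:**
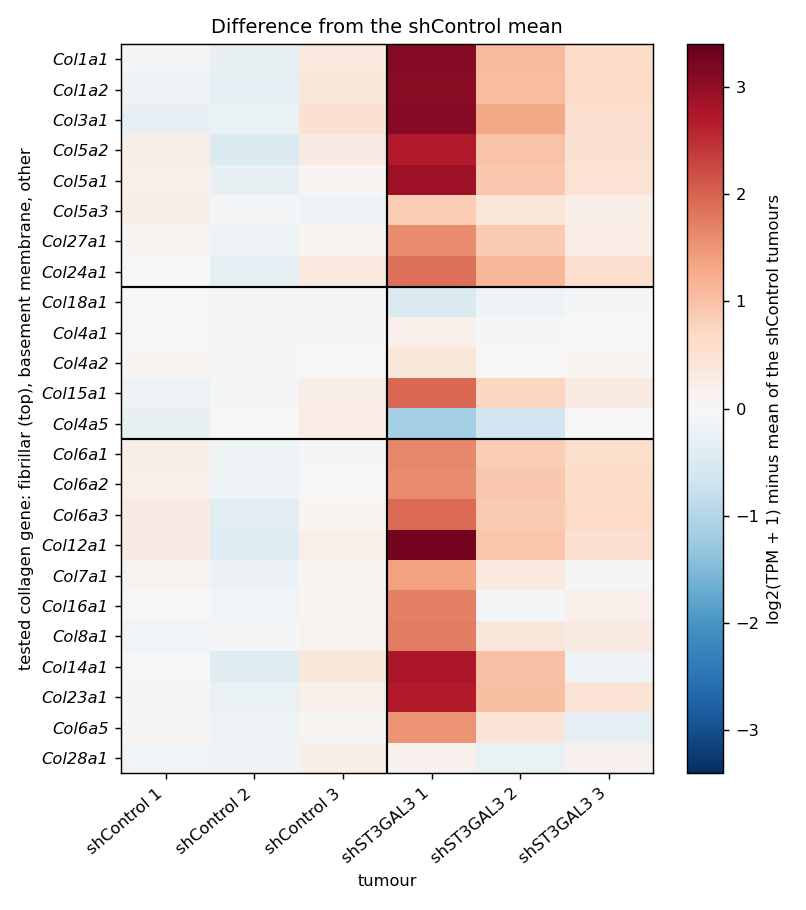
Difference of log2(TPM + 1) from the mean of the 3 shControl tumours for each tested collagen (rows, in 3 classes divided by black lines) and each tumour (columns). Red is above and blue below that mean, the fibrillar genes and Col6a1 to Col6a3 are red in all 3 shST3GAL3 tumours, and Col18a1 and Col4a5 are blue in shST3GAL3 1.

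The basement membrane class held genes that differed among themselves. Col4a1 and Col4a2 encode the chains of the collagen IV found in most basement membranes. Col4a1 stood at 213.9, 211.6 and 223.3 TPM in the shControl and at 241.7, 211.8 and 216.2 TPM in the shST3GAL3 tumours. Col4a2 stood at 110.1, 101.1 and 105.8 TPM and at 137.5, 104.6 and 109.9 TPM. The groups overlapped for both, and the log2 fold changes were 0.04 (SE 0.07) and 0.14 (SE 0.11). No direction can be given for Col4a1, whose log2 fold change was -0.01 without shST3GAL3 1 or with library weights.

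Both genes start head to head on chromosome 8. In the RefSeq windows their annotated starts overlap by 22 bases at chr8:11312805-11312826 (GRCm38.p6), shown on the plus strand, along which Col4a2 is read. Motifs are not marked by capitals in this stretch, which holds GGGCGG in lower case.
Col4a1 and Col4a2: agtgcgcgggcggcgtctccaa
The ratio of Col4a1 to Col4a2 was 1.94, 2.09 and 2.11 in the shControl and 1.76, 2.02 and 1.97 in the shST3GAL3 tumours, with overlap.

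Col4a5, on the X chromosome, encodes a chain of a less widespread collagen IV network. It stood at 25.2, 30.4 and 35.9 TPM in the shControl and at 12.9, 19.0 and 30.0 TPM in the shST3GAL3 tumours. The lowest values were those of shST3GAL3 1 and 2, while shST3GAL3 3 lay inside the shControl range. The log2 fold change was -0.61 (SE 0.29, adjusted p = 0.402 in limma), and -0.33 without shST3GAL3 1. Its neighbour Col4a6 stood at 0.03 TPM or less in every tumour, and Col4a3 and Col4a4, which encode the chains known from kidney and lung basement membranes, at 0.07 TPM or less.

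Col15a1 and Col18a1 encode the multiplexins, collagens with interrupted helices that sit at basement membranes, and Col18a1 is the source of endostatin. Their values differed in opposite directions. Col15a1 stood at 21.0, 23.0 and 28.1 TPM in the shControl and at 95.2, 40.6 and 29.8 TPM in the shST3GAL3 tumours, with no overlap. Its log2 fold change was 1.00 (SE 0.40), and 0.53 without shST3GAL3 1. Col18a1 stood at 324.0, 333.2 and 309.6 TPM and at 228.0, 290.1 and 313.3 TPM. Here shST3GAL3 3 overlapped the shControl range, and the log2 fold change was -0.23 (SE 0.12). With 3 other scalings of the libraries, Col18a1 was lower in all 3 shST3GAL3 tumours, so its overlap depended on the scaling.

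Collagen VI, the beaded filament collagen, had the smallest unadjusted p-values among the collagens. Col6a1 stood at 162.6, 123.6 and 137.5 TPM in the shControl and at 436.5, 253.3 and 212.0 TPM in the shST3GAL3 tumours. Col6a2 stood at 122.8, 98.4 and 108.1 TPM and at 334.5, 206.8 and 170.0 TPM. Col6a3 stood at 116.7, 74.9 and 101.4 TPM and at 371.1, 177.5 and 154.8 TPM. For all 3 genes the lowest shST3GAL3 tumour was above the highest shControl tumour. These limma p-values were 0.0067, 0.00379 and 0.0118, and the adjusted p was 0.38 for each. The log2 fold changes were 1.02 (SE 0.26), 1.05 (SE 0.24) and 1.17 (SE 0.34), and 0.72, 0.77 and 0.78 without shST3GAL3 1. The 3 shST3GAL3 tumours stood at 3.05, 1.88 and 1.55 times the shControl mean of Col6a2. Col6a5 reached 4.73 TPM in shST3GAL3 1 and overlapped elsewhere (log2 fold change 0.54, SE 0.45), and Col6a4 and Col6a6 stayed at 0.74 TPM or less.

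Among the fibril-associated collagens, Col12a1, whose product binds collagen I fibrils, stood at 60.3, 36.4 and 56.9 TPM in the shControl and at 487.3, 97.4 and 73.8 TPM in the shST3GAL3 tumours. The groups did not overlap, and shST3GAL3 1 was 9.52 times the shControl mean. Its log2 fold change was 1.59 (SE 0.68), and 0.75 without that tumour. Col14a1 stood at 5.0, 3.5 and 6.8 TPM and at 39.8, 10.9 and 4.5 TPM, with shST3GAL3 3 inside the shControl range. Col16a1 stood at 21.4, 20.0 and 22.3 TPM and at 71.7, 20.8 and 24.2 TPM, so that only shST3GAL3 1 was far from the rest. Without that tumour the log2 fold change of Col16a1 was 0.08, against 0.62 (SE 0.43) with it, and that of Col14a1 0.44, against 1.22 (SE 0.68).

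Of the short-chain and membrane collagens, Col8a1, known from vessel walls, stood at 14.4, 14.9 and 16.8 TPM in the shControl and at 53.8, 20.3 and 19.1 TPM in the shST3GAL3 tumours. Col23a1, a transmembrane collagen gene, stood at 1.70, 1.23 and 1.97 TPM and at 15.84, 4.36 and 2.63 TPM. Neither had overlapping groups (log2 fold changes 0.81, SE 0.37, and 1.40, SE 0.54). Col7a1, whose product forms the fibrils that anchor epithelium to the matrix, stood at 26.5, 21.3 and 25.8 TPM and at 64.5, 31.2 and 23.9 TPM, with overlap. Its log2 fold change was 0.56 (SE 0.34), and 0.16 without shST3GAL3 1. Col28a1 stood near 1 TPM in both groups (1.09 ± 0.252 and 1.13 ± 0.294 TPM, SD, n = 3 each), and its sign turned when single libraries were left out.

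The 20 collagen genes that were not tested were near the bottom of the range. In 16 of them every value was under 1 TPM, and in 10 under 0.5 TPM. The other 4 were Col8a2, Col11a1, Col13a1 and Col17a1. Col8a2 reached 8.81 TPM in shST3GAL3 1, against 0.63 to 1.36 TPM elsewhere. Col13a1 stood at 0.58, 0.46 and 0.88 TPM in the shControl and at 3.79, 0.93 and 1.04 TPM in the shST3GAL3 tumours, with no overlap. Col20a1, at 0.34 to 0.47 TPM and at 0.51 to 0.59 TPM, was the other untested gene with no overlap. Col17a1, a collagen gene of epithelial attachment, was highest in shControl 2 (1.21 TPM), and the keratinocyte genes Krt5, Krt14, Dsg3 and Lor were at 0.11 TPM or less in every tumour. In the same list Krt1 was at 0.34 TPM or less and Krt10 stood at 2.93 to 5.10 TPM.

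**Figure D3:**
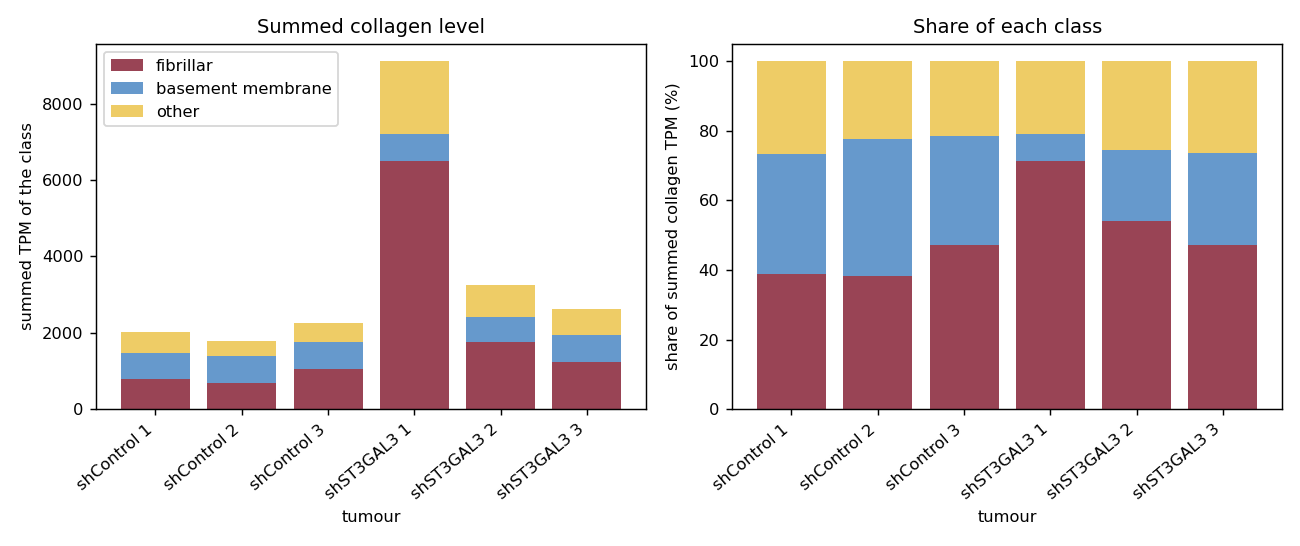
Summed TPM of the fibrillar, basement membrane and other collagens (left) and the share of each class in the summed collagen TPM (right), for each tumour. The basement membrane sum lies between 666 and 715 TPM in all 6 tumours, while its share runs from 39.2% in shControl 2 to 7.86% in shST3GAL3 1.

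The make-up of the collagen transcripts differed with these values. All collagens together came to 2015, 1784 and 2245 TPM in the shControl and to 9104, 3248 and 2629 TPM in the shST3GAL3 tumours. The fibrillar share was 38.9%, 38.4% and 47.1% and then 71.3%, 53.9% and 47.1%, so that shST3GAL3 3 and shControl 3 had almost the same share. Col18a1 was the most abundant collagen transcript in all 3 shControl tumours. In the shST3GAL3 tumours Col1a1 led in 1 and 3 and Col3a1 in 2, and Col18a1 ranked 11, 4 and 3. The near constant basement membrane sum held different genes. From the shControl mean to shST3GAL3 1, Col15a1 and Col4a2 were 3.97 and 1.30 times as high, and Col18a1 and Col4a5 stood at 0.707 and 0.422 times that mean.

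Some genes whose products assemble into 1 protein kept close ratios over all 6 tumours. Col1a1 to Col1a2 was 1.10, 1.09 and 0.988 in the shControl and 1.08, 1.07 and 1.03 in the shST3GAL3 tumours. Col6a1 to Col6a2 was 1.32, 1.26 and 1.27 and then 1.30, 1.22 and 1.25. These ratios varied little between tumours whose levels differed several fold, while Col6a3 to Col6a1 ran from 0.607 to 0.85. Col3a1 to Col1a1 lay between 0.743 and 1.01, and Col12a1 to Col1a1 between 0.183 and 0.262.

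Some other ratios varied more. Col4a1 to Col1a1 was 0.929, 1.07 and 0.748 in the shControl and 0.119, 0.420 and 0.587 in the shST3GAL3 tumours, with no overlap. Col15a1 to Col18a1 was 0.065, 0.069 and 0.091 and then 0.418, 0.140 and 0.095, again with no overlap, though shST3GAL3 3 was close to shControl 3. Col6a1 to Col1a1 was 0.706, 0.622 and 0.461 and then 0.215, 0.502 and 0.575, with overlap. Col4a1 to Pecam1, an endothelial marker gene, was 7.58, 10.02 and 9.79 and then 2.77, 4.99 and 6.47, with no overlap. In all 19 ratios were computed, and exact two-sided permutation tests gave p = 0.1 for the 3 without overlap, the smallest that 3 against 3 samples allow (0.633 adjusted over the 19).

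**Figure D4:**
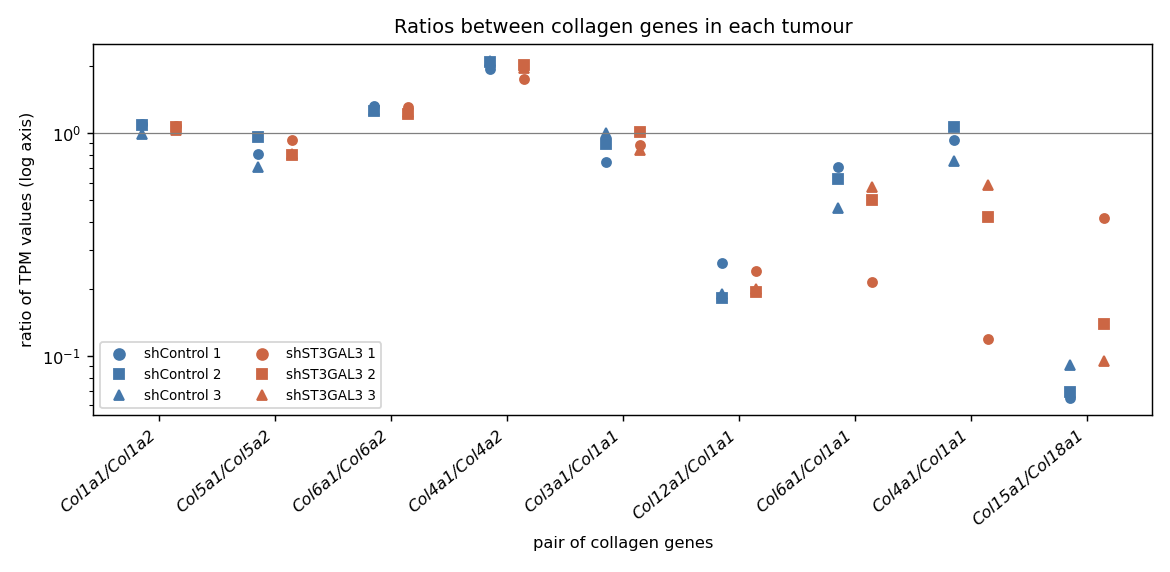
Ratio of TPM values for 9 pairs of collagen genes in each tumour, on a log axis, with a grey line at 1. Col1a1/Col1a2 and Col6a1/Col6a2 lie close together in all tumours, and Col4a1/Col1a1 runs from 1.07 in shControl 2 to 0.119 in shST3GAL3 1.

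Markers of fibroblasts were ordered over the tumours like the fibrillar collagens. Of 12 fibroblast markers 11 were tested, and 9 were above the shControl range in all 3 shST3GAL3 tumours, against 15.7% of all genes. Their median difference from the shControl mean was 2.99, 1.2 and 0.43 on the log2 scale in shST3GAL3 1, 2 and 3, and that of the fibrillar collagens 2.78, 1.01 and 0.54. The summed marker level lay between 1604 and 1845 TPM in the shControl and between 2005 and 3578 TPM in the shST3GAL3 tumours. Most of it in the shControl tumours came from Fn1, which overlapped between the groups (log2 fold change 0.07, SE 0.11). Fn1 stood at 1284, 1293 and 1363 TPM in the shControl and at 1541, 1190 and 1439 TPM in the shST3GAL3 tumours. Tcf21 was at 0 in all 6. Pdgfra, a receptor gene of fibroblasts, stood at 6.09, 4.30 and 6.60 TPM and at 43.10, 15.12 and 11.14 TPM. Col1a1 per Pdgfra was 37.8, 46.2 and 45.2 in the shControl and 47.2, 33.4 and 33.1 in the shST3GAL3 tumours, with overlap and an exact permutation p of 0.4. Col1a1 per Thy1, another fibroblast marker, was 2.25, 2.84 and 3.28 and then 6.77, 2.98 and 3.25, with shST3GAL3 1 far above the rest (exact permutation p = 0.3). Col1a1 per Dcn, the decorin gene, was 4.91, 7.60 and 4.95 and then 6.92, 4.08 and 5.53, with overlap. In whole tumours, a difference in the number of cells of a type and a difference in RNA per cell cannot be told apart. The part of fibroblast content in the collagen values was not tested beyond these 3 ratios.

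Several lists for other cell types had medians in the same order, highest in shST3GAL3 1 and lowest in shST3GAL3 3 among the shST3GAL3 tumours. In shST3GAL3 1, 2 and 3 the median difference from the shControl mean was 1.93, 0.79 and 0.60 for the endothelial list. For the macrophage list it was 0.995, 0.56 and 0.13. The pericyte and smooth muscle, adipocyte, Schwann cell and mesothelial medians had this order too. The adipocyte, Schwann cell and mesothelial medians each rested on 2 tested genes. The skeletal muscle, cartilage and keratinocyte medians did not. The endothelial list had 9 of 10 genes above the shControl range, against 15.7% of all genes. It had 7 of 8 (15.1%) without Tek and Erg, which reached 1 TPM in all 3 shST3GAL3 but not in all 3 shControl tumours. Its summed levels were 59.8 to 84.5 TPM in the shControl and 109 to 305 TPM in the shST3GAL3 tumours. Col15a1 per Pecam1 lay between 0.742 and 1.23 in the shControl and between 0.893 and 1.09 in the shST3GAL3 tumours. In the pericyte and smooth muscle list 2 of 8 genes were above the range, a share near the 15.7% of all genes, with sums of 115 to 166 TPM and 178 to 893 TPM. The macrophage sums were 1071 to 1281 TPM and 1273 to 2264 TPM, and 3 of 7 genes were above the range (15.7% of all genes), with shST3GAL3 3 just under shControl 1 in its sum. Adipocyte sums were 7.03 to 17.9 TPM and 22.2 to 94.2 TPM. Of 7 adipocyte genes 2 were tested, and 2 were above the range (15.7% of all genes), with a median log2 fold change of 2.18. Without Cfd, which reached 1 TPM in all 3 shST3GAL3 but not in all 3 shControl tumours, Fabp4 was left, with a log2 fold change of 1.68. Skeletal muscle sums overlapped, at 3.49 to 118 TPM and 4.37 to 380 TPM, with shST3GAL3 1 among the lowest. The Schwann cell sums were 18.6 to 20.1 TPM and 22.2 to 62.3 TPM, led by Pmp22, which was above the range (14.8 to 53.3 TPM in the shST3GAL3 tumours), while Sox10 and Cdh19 were at 0.24 TPM or less. Mbp, the other tested gene of that list, overlapped between the groups (log2 fold change -0.06, SE 0.11). The mesothelial sums were 16.3 to 17.9 TPM and 16.8 to 20.4 TPM, mostly from Msln, while Upk3b and Lrrn4 were at 0.12 TPM or less. Msln had the opposite order, at 13.6, 16.1 and 19.8 TPM in shST3GAL3 1, 2 and 3. Wt1, the other tested gene, stood at 3.01, 1.18 and 0.58 TPM there, and both genes overlapped between the groups. The cartilage sums overlapped, at 44.0 to 56.2 TPM and 36.5 to 50.5 TPM, as did the keratinocyte sums, at 3.83 to 5.10 TPM and 2.99 to 3.92 TPM. The part of these lists in the collagen values was not tested.

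Among the epithelial genes the keratins Krt8, Krt18 and Krt19 were lowest in shST3GAL3 1. Krt19 stood at 965 ± 95.2 TPM in the shControl and 642 ± 230 TPM in the shST3GAL3 tumours (SD, n = 3 each) and was lower in all 3 of them (log2 fold change -0.66, SE 0.28, adjusted p = 0.385 in limma). Cdh1 stood highest there, at 9.46 TPM against 2.44 to 3.14 TPM elsewhere, as did Epcam, at 1.17 TPM against 0.07 to 0.31 TPM. The summed epithelial markers, nearly all from the 3 keratins, were 3278, 3673 and 3193 TPM and then 1765, 2685 and 3193 TPM, lowest in shST3GAL3 1, the tumour with the lowest Col18a1 and Col4a5. Col18a1 per Krt8 was 0.266, 0.257 and 0.268 in the shControl and 0.313, 0.283 and 0.255 in the shST3GAL3 tumours, a narrow range with overlap. Col4a5 per Krt8 varied more, at 0.0207, 0.0234 and 0.0311 and then 0.0177, 0.0185 and 0.0244, with overlap. Col4a1 per Krt8 was 0.175, 0.163 and 0.193 and then 0.332, 0.207 and 0.176. The genes set against the collagens in these ratios were chosen after their values were seen.

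**Figure D5:**
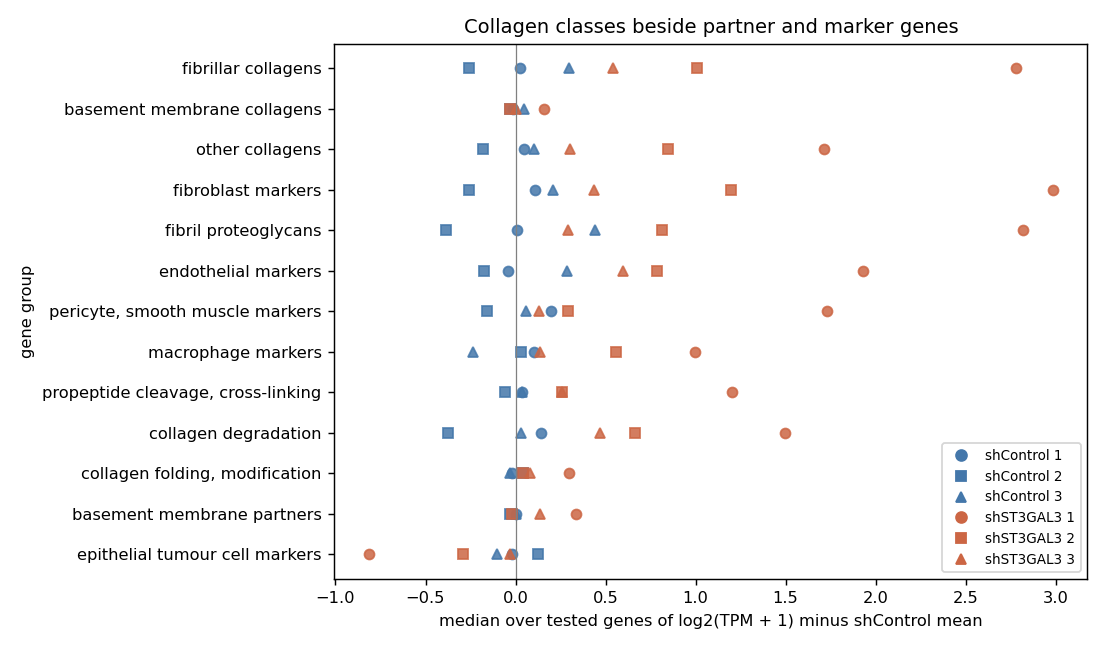
Median over the tested genes of each group of the difference of log2(TPM + 1) from the shControl mean, for each tumour. Fibrillar collagens and fibroblast markers are at 2.78 and 2.99 in shST3GAL3 1, basement membrane collagens are at 0.16, and epithelial markers are at -0.82 in shST3GAL3 1.

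Of 19 genes for enzymes and chaperones that fold collagen, 17 were tested and none was called by limma. The shControl range was exceeded by 6 of the 17, against 15.7% of all genes, and 1 lay below it, a share near the 7.76% of all genes. The median log2 fold change was 0.15, and 0.08 without shST3GAL3 1. Serpinh1, the collagen chaperone HSP47, stood at 410.7, 453.2 and 411.5 TPM in the shControl and at 826.8, 466.9 and 431.3 TPM in the shST3GAL3 tumours. Only shST3GAL3 1 was far above the shControl tumours, and the log2 fold change was 0.37 (SE 0.24), and 0.08 without that tumour. P4ha1, a subunit gene of prolyl hydroxylase, stood at 111 ± 4.76 and 114 ± 19.1 TPM, with no clear direction. Crtap, P3h1 and Plod1, which modify proline or lysine in the helix, had log2 fold changes of 0.36, 0.55 and 0.55, each above the shControl range. Plod2, the lysyl hydroxylase of the telopeptides, was the gene below the range, at 64.2 ± 7.01 and 47.6 ± 2.02 TPM (-0.42, SE 0.10, adjusted p = 0.38 in limma).

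Genes for propeptide cleavage and cross-linking had 8 of 11 tested members above the shControl range, against 15.7% of all genes, and none called. The median log2 fold change was 0.52, and 0.22 without shST3GAL3 1. Lox, the lysyl oxidase that starts cross-linking, stood at 11.5, 10.5 and 10.8 TPM in the shControl and at 103.7, 21.4 and 15.4 TPM in the shST3GAL3 tumours. Loxl1 had a log2 fold change of 1.63 (SE 0.55). The procollagen proteinase genes Bmp1 and Adamts2 stood at 43.9 ± 2.00 and 102 ± 69.6 TPM, and at 11.7 ± 3.01 and 31.2 ± 21.1 TPM. Pcolce, an enhancer of C-propeptide cleavage, was higher by less, at 318 ± 15.4 and 361 ± 18.9 TPM, and Loxl2, Loxl4 and Pcolce2 overlapped (log2 fold changes -0.02, 0.03 and -0.09). Sparc, a collagen-binding matrix protein gene, stood at 519.0, 527.8 and 596.9 TPM and at 2213.3, 812.5 and 705.1 TPM.

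Among fibril-associated proteoglycans, 3 of 8 tested genes were above the shControl range, against 15.7% of all genes, and none was called. The median log2 fold change was 1.30, and 0.56 without shST3GAL3 1. Fmod reached 1 TPM in all 3 shST3GAL3 but not in all 3 shControl tumours. Without Fmod 3 of 7 were above the range, against 15.1% of all genes, with a median of 1.48. Dcn, which encodes decorin and binds collagen I, stood at 46.9, 26.2 and 60.3 TPM in the shControl and at 294.0, 123.7 and 66.7 TPM in the shST3GAL3 tumours. Bgn, the biglycan gene, stood at 972 ± 77.5 and 1629 ± 682 TPM, and Prelp at 2.14 ± 0.453 and 10.4 ± 9.99 TPM. Lum, the lumican gene, overlapped between the groups, at 9.16 ± 2.99 and 40.8 ± 40.2 TPM.

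The basement membrane partners had 4 of 12 tested genes above the shControl range, against 15.7% of all genes, and 1 below it, a share near the 7.76% of all genes. None was called, and the median log2 fold change was 0.13, and 0.03 without shST3GAL3 1. It was 0.04 without Lama2, which reached 1 TPM in all 3 shST3GAL3 but not in all 3 shControl tumours. Without Lama2 the counts were 3 of 11 above, against 15.1% of all genes, and 1 below, against 7.59%. The gene below the range was Lama5, a laminin chain gene (log2 fold change -0.39, SE 0.20). It stood at 196.5, 190.4 and 179.3 TPM in the shControl and at 101.9, 165.7 and 177.4 TPM in the shST3GAL3 tumours. Nid1, the nidogen that joins laminin and collagen IV, stood at 251.6, 264.5 and 247.1 TPM in the shControl and at 238.9, 244.0 and 254.6 TPM in the shST3GAL3 tumours, with overlap (-0.05, SE 0.06). Hspg2, which encodes perlecan, stood at 58.8 ± 3.29 and 86.3 ± 31.3 TPM, with no overlap. Lama4, a laminin chain gene of vessels, stood at 10.5 ± 2.60 and 23.8 ± 12.2 TPM, and Nid2 at 3.86 ± 0.731 and 10.2 ± 7.07 TPM. Lama2 was also above the range, at 0.787 ± 0.319 and 2.19 ± 1.10 TPM.

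Of the collagen receptor genes 2 of 9 tested were above the shControl range, a share near the 15.7% of all genes, and none was called. The median log2 fold change was 0.25, and 0.18 without shST3GAL3 1. Itga11 reached 1 TPM in all 3 shST3GAL3 but not in all 3 shControl tumours. Without Itga11 2 of 8 were above the range, against 15.1% of all genes, with a median of 0.16. Mrc2, an endocytic collagen receptor of stromal cells, stood at 5.11 ± 0.823 and 20.7 ± 20.8 TPM, and Itga1, an integrin chain that binds collagen IV, at 5.27 ± 0.423 and 8.17 ± 2.22 TPM. Itga11, the fibroblast integrin chain for collagen I, reached 20.37 TPM in shST3GAL3 1 and lay between 0.86 and 2.89 TPM elsewhere. Ddr2, a receptor kinase for fibrillar collagen, stood at 35.1 ± 0.428 and 32.8 ± 2.32 TPM. Lair1, an inhibitory collagen receptor of leukocytes, overlapped at 17.2 ± 2.04 and 21.4 ± 4.03 TPM.

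In the degradation list 5 of 7 genes were above the shControl range, against 15.7% of all genes, and none was called. The median log2 fold change was 0.88, and 0.56 without shST3GAL3 1. The most abundant genes of the list, the collagenase gene Mmp13 and the gelatinase gene Mmp9, overlapped between the groups. Mmp13 stood at 931.5, 535.1 and 668.3 TPM in the shControl and at 864.9, 842.8 and 637.9 TPM in the shST3GAL3 tumours, and Mmp9 at 621.2, 559.0 and 450.5 TPM and at 326.5, 488.0 and 567.6 TPM. Mmp2, another gelatinase gene, stood at 16.3, 11.8 and 24.8 TPM in the shControl and at 237.9, 46.2 and 31.2 TPM in the shST3GAL3 tumours. Mmp14, the membrane-bound collagenase that activates it, stood at 139 ± 15.2 and 270 ± 112 TPM. Fap, a protease gene of activated fibroblasts, stood at 3.66 ± 0.0404 and 7.11 ± 2.24 TPM, and the neutrophil collagenase gene Mmp8 at 2.92 ± 1.54 and 6.94 ± 2.17 TPM. Mitochondrial transcripts made up 3.75% to 3.97% of the TPM in the shControl and 3.05% to 3.39% in the shST3GAL3 tumours, and the part of this difference in the results was not tested.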

How the data were processed

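RNA sequencing of 6 tumours was analysed, 3 shControl and 3 shST3GAL3, with groups taken from the titles. Per the labels' protocols, RNA was extracted with TRIzol and treated with DNase I. The authors deposited TPM per gene, with gene lengths. The unit was read from the values, which sum to about 1000000 in each library. Per the submitters' processing notes, fastp, HISAT and RSEM were used with GRCm39, and no versions are named. The sources used here give neither annotation release nor strand setting, so reads of near-identical or overlapping genes may have been shared out.

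The 14207 genes that reached 1 TPM in at least 3 libraries were tested with limma 3.58.1 in R 4.3.3 (mean-variance trend, log2(TPM + 1), group alone, Benjamini-Hochberg over all genes, threshold 0.05). Single ratios were tested by exact permutation in scipy 1.17.1. The fit was also run on simulated data with independent noise for each gene and the same spread in every library. That run held no library apart from the rest, as shST3GAL3 1 is here, and nothing is concluded from it. Errors are SD over n = 3 or the moderated SE. Members and the 17 partner and marker lists were chosen with earlier results of these data known, so lists are given as counts and medians without a test. Named genes were the collagens, up to 4 genes of each list with the smallest p, and Serpinh1, P4ha1, Lox, Sparc, Dcn, Hspg2, Nid1, Ddr2, Itga11, Pdgfra and St3gal3. Others were named after their values were seen. Alternatives were another pseudocount, other filters, 3 other scalings, library weights, the replicate number as a block and leaving out each library.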

Additional observations from a re-analysis of the deposited data

How the results depend on the processing

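No collagen passed over all genes under any of the 14 alternatives, and 22 of the 24 tested collagens kept their sign under each. Counts of genes called higher over all genes were 0, and 1 with a pseudocount of 0.1 and 5 with library weights, where 3 were called lower in place of 1. Leaving out single libraries gave 0 to 2 called higher (2 without shST3GAL3 1) and 1 to 2 called lower (2 without shST3GAL3 2 or 3). St3gal3 passed with library weights (log2 fold change -0.89). Collagens above the shControl range numbered 13 to 18 over the alternatives (18 without shST3GAL3 3). They numbered 13 without genes that reached 1 TPM in every tumour of 1 group alone, a setting chosen after seeing the data. Over all genes 21.2% were above and 9.38% below the range without shST3GAL3 1, and 15.1% and 7.59% in that last setting. No such share is given for the other alternatives, so their counts cannot be set against one. Collagens below the range numbered 0, and 1 with median-ratio scaling, quantile normalization or without mitochondrial, ribosomal protein and immunoglobulin genes (Col18a1), and 0 to 2 when single libraries were left out (Col4a5 without shControl 1, Col18a1 without shControl 3, both without shST3GAL3 3). The median of all collagens was 0.39 and that of other collagens 0.29 with no filter on low values, which adds genes near 0. The basement membrane median, which is the value of Col4a1, was -0.000802 with quantile normalization and -0.0121 with library weights. Leaving out single libraries gave medians of 0.55 to 1.25 for all, 0.79 to 1.86 for fibrillar, -0.0146 to 0.0802 for basement membrane and 0.44 to 1.24 for other collagens, each lowest without shST3GAL3 1. The 3 scalings moved the median of all genes from 0.01 to between -0.05 and -0.003. Signs also turned for P4ha1 (-0.0301 and -0.0791 with the same settings, -0.0992 without shST3GAL3 1 to 0.107 without shST3GAL3 2) and Col28a1 (-0.0766 and -0.11, and -0.0360 without shST3GAL3 1 or 3 to 0.145 without shST3GAL3 2). The cause was not tested. With the replicate number as a block 0 genes were called higher and 1 lower, as without it. Same-numbered libraries had correlations of -0.08 to 0.04 between their deviations from the group means. These values gave no sign that the numbers pair the samples, but 3 libraries per group cannot decide it. Depth is unknown, and 3 tumours per group limit what can be detected.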
